A study of Mus musculus with 8 samples.

Results

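The genes described here are 10 components of the Toll-like receptor system, the receptors Tlr1, Tlr2, Tlr3, Tlr4, Tlr7 and Tlr13, the co-receptors Cd14 and Ly96, and the adaptors Myd88 and Ticam1. They were chosen by gene symbol, with earlier results of these data known, and all 10 were found among the 22520 genes of the expression table. Expression was measured by RNA sequencing in 8 libraries of mouse microvascular cells, 4 from mice lacking the lipoprotein receptor LRP1 in the endothelium (LRP1 KO) and 4 from wild-type littermates (WT), to find the genes that change when endothelial cells lose LRP1. Mice of both groups were C57BL/6, carried floxed Lrp1 alleles (LRP1 f/f) and were at postnatal day 14, and the LRP1 KO mice also carried CreER under the Cdh5 promoter, which is active in endothelial cells. The WT mice carried the floxed alleles without CreER, so an effect of CreER itself cannot be told apart from the loss of LRP1. Each library is labelled as mixed microvesicular cells of heart, liver and lung, and the study's methods describe such cells as selected with beads against PECAM-1, a surface protein that leukocytes and platelets also carry. The study describes sequencing of liver cells and of heart and lung cells as separate sets, so what each library mixed is uncertain. Nothing states that the libraries came from separate animals, so p-values measure only the spread between these libraries.

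Toll-like receptors recognise conserved molecules of microbes and of damaged cells through leucine-rich repeats and signal through a cytoplasmic TIR domain. TLR4, with MD-2 (the product of Ly96) and CD14, senses bacterial lipopolysaccharide at the cell surface, and TLR2 pairs with TLR1 to sense lipoproteins. TLR3, TLR7 and TLR13 sit in endosomes and bind RNA. MyD88 serves every Toll-like receptor named here except TLR3, whereas TRIF, the product of Ticam1, serves TLR3 and TLR4, and both adaptors lead to NF-kB and interferon regulatory factors. Endothelial cells are known to respond to lipopolysaccharide through TLR4, and macrophages express a wider range of the receptors.

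Lrp1 itself was 103.2 to 140.4 FPKM (fragments per kilobase of transcript after scaling for the number mapped) in WT and 2.79 to 7.72 in LRP1 KO, and its log2 fold change was -4.45 (adjusted p = 8.9e-05). The values had been quantile normalized before deposit, so that library sums lay between 503571 and 504112, and the sequencing depth is unknown. Defining endothelial genes such as Pecam1 (6.72 to 36.3 FPKM over the 8 libraries) and Cdh5 (8.56 to 47.3 FPKM) were present, but the summed FPKM of 18 endothelial genes, 218.1 to 235.8 in WT, was far below that of 10 fibroblast genes, 2454 to 3658. In LRP1 KO the fibroblast sum was 2060 to 3260, and 2 of the 10 fibroblast genes, Pdgfra and Dpt, were called lower and none higher, against 7.31% lower and 6.27% higher over all tested genes. In LRP1 KO the endothelial sum was 213.1 in library 4, at the WT level, and 457.1 to 705.4 in the other 3, and that of 9 genes of mural cells was 626.9 to 793.4 in WT and 975.7 to 1550 in LRP1 KO. Of 17 tested endothelial genes 1 was called higher, of 6 tested mural genes 2, and none was called lower. Over all tested genes 6.27% were called higher and 7.31% lower. The summed FPKM of 18 macrophage genes was 55.9 to 97.2 in WT and 225.5 to 554.0 in LRP1 KO, and that of 12 genes of leukocytes in general was 9.68 to 17.0 in WT and 53.3 to 109.4 in LRP1 KO. Of the macrophage genes, 11 could be tested and 9 of these were higher in LRP1 KO and none lower, against 6.27% higher over all tested genes, but Adgre1, Mrc1 and Ms4a7 among the 9 passed the filter on low values only through LRP1 KO libraries. Markers of tissue macrophages differed among themselves. Cx3cr1, Timd4 and Clec4f were at or near 0 in every library, Marco was 0.0821 to 0.666 FPKM in WT and 0.636 to 11.8 FPKM in LRP1 KO, and Mertk was 11.7 to 17.4 and 11.9 to 15.6 FPKM. Of 8 neutrophil genes, Ly6g and Retnlg were listed at 0 in every library and Mmp8 was 7.72 to 9.49 FPKM in WT and 3.52 to 9.65 FPKM in LRP1 KO. The T cell marker Cd3e was listed at 0 in every library. In bulk RNA, more cells of a type and more RNA per cell cannot be told apart.

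The start regions of 4 of the genes are shown, for genes on both sides of the test. Tlr13 and Tlr3 rose in LRP1 KO, whereas Tlr2, like Tlr13 a receptor of myeloid cells, and Myd88 did not pass the test. Each sequence is the RefSeq promoter (GRCm38.p6), from 250 bases before to 50 bases after the annotated start, written 5′ to 3′ on the gene's strand, with every match to a searched motif in capitals.
Tlr13, chrX:106143025-106143324, plus strand: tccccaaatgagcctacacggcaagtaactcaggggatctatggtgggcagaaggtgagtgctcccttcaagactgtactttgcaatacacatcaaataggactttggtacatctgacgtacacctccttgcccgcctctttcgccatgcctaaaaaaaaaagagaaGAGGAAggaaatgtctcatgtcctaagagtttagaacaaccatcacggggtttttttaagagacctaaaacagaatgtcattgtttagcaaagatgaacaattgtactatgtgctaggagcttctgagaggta
Tlr3, chr8:45410331-45410630, minus strand: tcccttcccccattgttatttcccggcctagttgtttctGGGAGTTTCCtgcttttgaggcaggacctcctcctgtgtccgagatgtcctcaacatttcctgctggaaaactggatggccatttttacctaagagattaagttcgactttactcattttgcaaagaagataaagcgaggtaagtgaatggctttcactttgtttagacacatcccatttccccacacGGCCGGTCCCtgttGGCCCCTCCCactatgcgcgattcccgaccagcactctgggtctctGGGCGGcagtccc
Tlr2, chr3:83841559-83841858, minus strand: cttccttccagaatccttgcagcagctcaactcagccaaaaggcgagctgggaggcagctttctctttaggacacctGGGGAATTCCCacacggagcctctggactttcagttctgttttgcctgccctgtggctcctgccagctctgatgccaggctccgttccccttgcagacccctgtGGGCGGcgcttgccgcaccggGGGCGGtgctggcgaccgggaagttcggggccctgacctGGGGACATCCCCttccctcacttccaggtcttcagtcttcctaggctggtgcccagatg
Myd88, chr9:119339969-119340268, minus strand: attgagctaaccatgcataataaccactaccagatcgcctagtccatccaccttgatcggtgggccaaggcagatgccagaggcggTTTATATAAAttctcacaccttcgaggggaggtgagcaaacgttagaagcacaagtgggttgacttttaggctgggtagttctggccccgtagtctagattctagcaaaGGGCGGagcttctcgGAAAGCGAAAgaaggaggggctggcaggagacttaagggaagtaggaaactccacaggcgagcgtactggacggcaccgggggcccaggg

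The searched motifs, on both strands, were the PU.1 box GAGGAA of myeloid genes (present in 28.3% of 32851 mouse promoters of the same length), the NF-kB motif GGGNNNNNCC (50.8%), the interferon-stimulated response element GAAANNGAAA (3.44%), the AP-1 motif TGANTCA (7.81%), the GC box GGGCGG (35.7%) and the TATA box TATAAA (13.6%). The Tlr13 window held a PU.1 box beginning at position -83 from the start and no other searched motif. A PU.1 box also stood in the promoter of Ticam1, at -30, and in 1 of the 2 promoters of Tlr1, at -23, which are not shown. Tlr3 held 3 NF-kB matches, the nearest beginning at -9, and a GC box at +38. Tlr2 held 5 overlapping NF-kB matches at 2 places and 2 GC boxes, and no PU.1 box. Myd88 held an interferon-stimulated response element beginning at -40, a GC box and 2 overlapping TATA matches. The share of G and C was 43.3% in the Tlr13 window, 51.0% in Tlr3, 54.0% in Myd88 and 62.0% in Tlr2, against a median of 52.7% over all promoters. A match to such short letters is a description of the sequence and not evidence of a bound factor. A RefSeq promoter was at hand for 6 of the 10 genes, and those of Tlr4, Tlr7, Cd14 and Ly96 are not shown.

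Both genes that passed the test, Tlr13 and Tlr3, encode RNA-sensing receptors of the endosome, and Tlr7, the third such receptor here, could not be tested across genes. Tlr13, which recognises bacterial ribosomal RNA (X:106143204-106160493, plus strand, GRCm38), was 0.131, 0.335, 0.283 and 0.237 FPKM across WT libraries 1 to 4 and 1.99, 2.96, 1.48 and 2.50 FPKM in the corresponding LRP1 KO libraries. Every LRP1 KO library lay above every WT library, and the lowest of them was 4.43 times the highest WT value. The mean rose from 0.246 ± 0.0868 (SD, n = 4) to 2.23 ± 0.637 FPKM (SD, n = 4), a ratio of 9.07, and the log2 fold change of FPKM + 1 was 1.36 (SE 0.14, 95% interval 1.04 to 1.68, adjusted p = 0.000976). Adding 1 understates the change of so low a gene, and Tlr13 was kept by the filter on low values only through its 4 LRP1 KO libraries. Fitted with no filter, its adjusted p was 0.0051.

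Tlr3, the receptor for double-stranded RNA (8:45395665-45411080, minus strand), was 2.53, 2.05, 2.99 and 2.62 FPKM across WT libraries 1 to 4 and 3.35, 3.46, 4.05 and 3.42 FPKM across LRP1 KO. The groups did not overlap, but the gap between them was small, from 2.99 to 3.35 FPKM. The mean rose from 2.55 ± 0.384 to 3.57 ± 0.324 FPKM (SD, n = 4 each), a ratio of 1.40 and a log2 fold change of 0.37 (SE 0.097, 95% interval 0.15 to 0.59, adjusted p = 0.0368). This call was narrow. The adjusted p was 0.0653 with no filter and 0.0656 to 0.109 when any of WT libraries 1, 2 and 4 or LRP1 KO libraries 1, 2 and 3 was left out, with log2 fold changes of 0.30 to 0.39 in those fits. An antisense gene, Gm45542, shares 7.32% of the exon bases of Tlr3, and whether the counting used strand is not given in the sources used here.

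Tlr7, which recognises single-stranded RNA (X:167304929-167330558, minus strand), was 0.066, 0.553, 0.963 and 0.317 FPKM across WT libraries 1 to 4 and 1.18, 1.82, 0.953 and 1.46 FPKM across LRP1 KO. The groups overlapped, because WT library 3 was slightly above LRP1 KO library 3. Tlr7 was too low for the test across genes. Its means were 0.475 ± 0.382 for WT and 1.35 ± 0.374 FPKM for LRP1 KO (SD, n = 4 each), and the difference of 0.70 in log2(FPKM + 1) had an exact two-sided permutation p of 0.0571, where 0.0286 is the smallest that 4 against 4 libraries allow. Without WT library 3, the library that made the groups overlap, the difference was 0.85 (exact permutation p = 0.0286), and with any other library left out it was 0.55 to 0.78 (exact permutation p = 0.0571 to 0.0857). Tlr8, its neighbour on the X chromosome and outside the 10 genes, was at most 0.0750 FPKM in WT and 0.422 to 0.616 FPKM in LRP1 KO, also too low for the main test. In the fit with no filter the adjusted p of Tlr8 was 0.0026.

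The surface receptors for lipoproteins gave different values. Tlr2 (3:83836272-83841767, minus strand) was 3.33, 4.89, 4.35 and 3.11 FPKM across WT libraries 1 to 4 and 2.94, 3.34, 3.12 and 4.14 FPKM across LRP1 KO, with the groups overlapping over most of their range. Its means were 3.92 ± 0.841 and 3.39 ± 0.527 FPKM (SD, n = 4 each), and the log2 fold change was -0.16 (SE 0.13, 95% interval -0.46 to 0.14, adjusted p = 0.435). Its partner Tlr1 (5:64924679-64933563, minus strand) was close to 0 in both groups, at 0.078, 0.053, 0.070 and 0.103 FPKM in WT and 0.134, 0.255, 0.218 and 0.145 FPKM in LRP1 KO. The groups did not overlap, and the exact two-sided permutation p of the difference of 0.14 in log2(FPKM + 1) was 0.0286, the smallest possible. With WT library 1, 2 or 3 left out the exact permutation p was 0.0571, and in the fit with no filter the adjusted p was 0.0526. Of all 50-base stretches of the Tlr1 transcript, 15.3% also occur in Tlr6, the neighbouring gene and the other partner of TLR2, so reads of the pair could have been split in counting. Tlr6 was 0.216 to 0.352 FPKM in WT and 0.281 to 0.426 FPKM in LRP1 KO.

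None of the lipopolysaccharide receptor genes passed the test. Tlr4 (4:66827584-66930284, plus strand) was 13.3, 12.1, 18.4 and 17.4 FPKM across WT libraries 1 to 4 and 14.8, 13.3, 18.5 and 15.4 FPKM across LRP1 KO. Both groups covered nearly the same range, with means of 15.3 ± 3.07 and 15.5 ± 2.18 FPKM (SD, n = 4 each) and a log2 fold change of 0.03 (SE 0.14, adjusted p = 0.912), whose 95% interval of -0.29 to 0.35 bounds the change that these libraries allow. Ly96 (1:16688051-16709611, plus strand) was 26.4, 26.5, 22.1 and 25.8 FPKM in WT and 20.7, 21.0, 20.2 and 24.5 FPKM in LRP1 KO. WT library 3 was low and LRP1 KO library 4 high within their groups, which overlapped through these libraries alone. The Ly96 means were 25.2 ± 2.10 and 21.6 ± 1.94 FPKM, and the log2 fold change of -0.21 (SE 0.081, 95% interval -0.39 to -0.03) had an adjusted p of 0.103. Cd14, the surface protein that hands lipopolysaccharide to TLR4 and MD-2, was 47.9, 39.9, 29.9 and 31.4 FPKM in WT and 26.6, 25.3, 19.0 and 36.9 FPKM in LRP1 KO. LRP1 KO libraries 1 to 3 were below every WT library, and library 4 was above WT libraries 3 and 4. Its means were 37.3 ± 8.35 and 26.9 ± 7.39 FPKM, and the log2 fold change was -0.47 (SE 0.20, 95% interval -0.92 to -0.02, adjusted p = 0.136). Without LRP1 KO library 4, in which the endothelial gene sum stood at the WT level, the log2 fold change was -0.63 for Cd14 (adjusted p = 0.0292) and -0.27 for Ly96 (adjusted p = 0.0278). In that fit 3021 of 11389 genes were called, against 1547 with all libraries. The Cd14 difference kept its direction but was smaller without LRP1 KO library 3 (-0.32) or WT library 1 (-0.34).

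Neither adaptor passed the test. Myd88 (9:119335934-119341411, minus strand) was 23.1, 24.4, 21.7 and 23.4 FPKM across WT libraries 1 to 4 and 18.1, 22.0, 18.6 and 25.7 FPKM across LRP1 KO, where the spread was wider. The means were 23.1 ± 1.09 and 21.1 ± 3.53 FPKM (SD, n = 4 each), and the log2 fold change of -0.14 (SE 0.10, 95% interval -0.37 to 0.09) did not pass the test (adjusted p = 0.370). Acaa1a, on the opposite strand, shares 11.3% of the Myd88 exon bases. Ticam1 (17:56269319-56276786, minus strand) lay between 9.56 and 10.5 FPKM in the WT libraries and between 9.29 and 10.01 FPKM in the LRP1 KO libraries, and the groups overlapped. The means were 10.1 ± 0.479 and 9.56 ± 0.314 FPKM. Its log2 fold change was -0.07 (SE 0.059, 95% interval -0.20 to 0.06, adjusted p = 0.420).

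**Figure D1:**
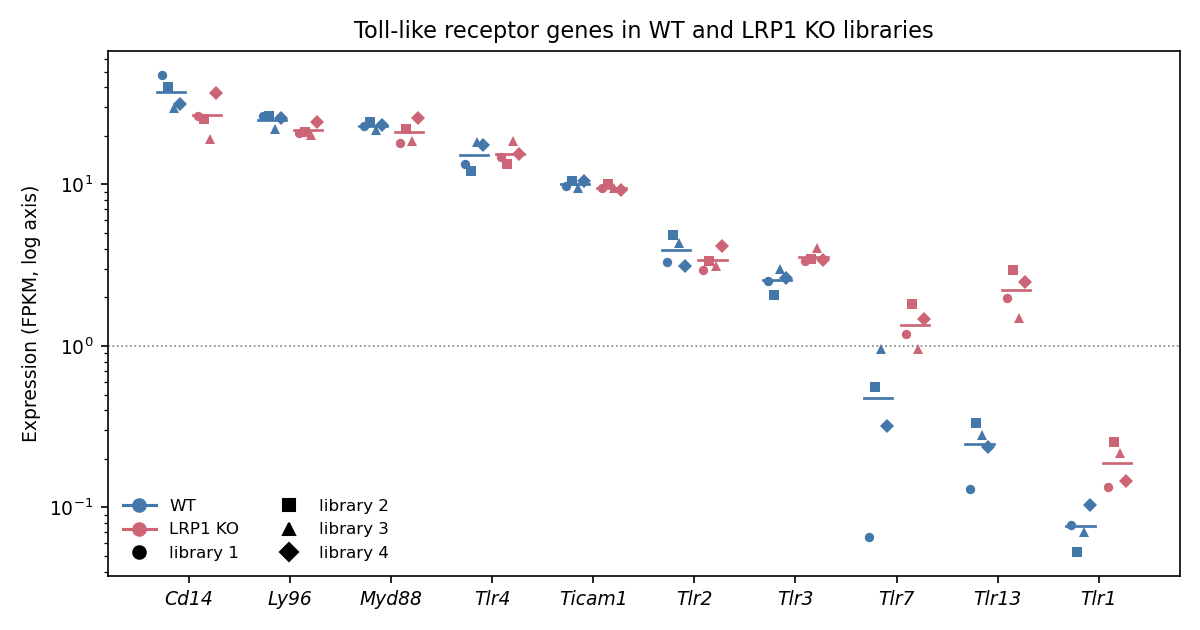
Expression of the 10 genes in FPKM (log axis) in each of the 4 WT and 4 LRP1 KO libraries, with marker shapes for the library number, lines for group means and a dotted line at 1 FPKM. The groups do not overlap for Tlr13, Tlr1 and, narrowly, Tlr3, while Cd14, Ly96, Myd88, Tlr4, Ticam1, Tlr2 and Tlr7 overlap.

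In all, 8 of the 10 genes were tested, 2 of them, Tlr13 and Tlr3, were called higher in LRP1 KO at an adjusted p under 0.05, and none was called lower. Over all 11389 tested genes, 6.27% were called higher and 7.31% lower, with a median log2 fold change of -0.009, so the count is 2 of 8 against this background. With a limit of 2-fold on this scale as well, Tlr13 was called, against 1.62% of all tested genes. Values of the groups did not overlap and were higher in LRP1 KO for Tlr13 and Tlr3 among the tested genes, against 8.84% of all tested genes, and did not overlap and were lower for none of the 10, against 10.7%. With no filter on low values, all 10 genes could be fitted and Tlr13 alone was called, against 3.31% of 18026 genes called higher.

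**Figure D2:**
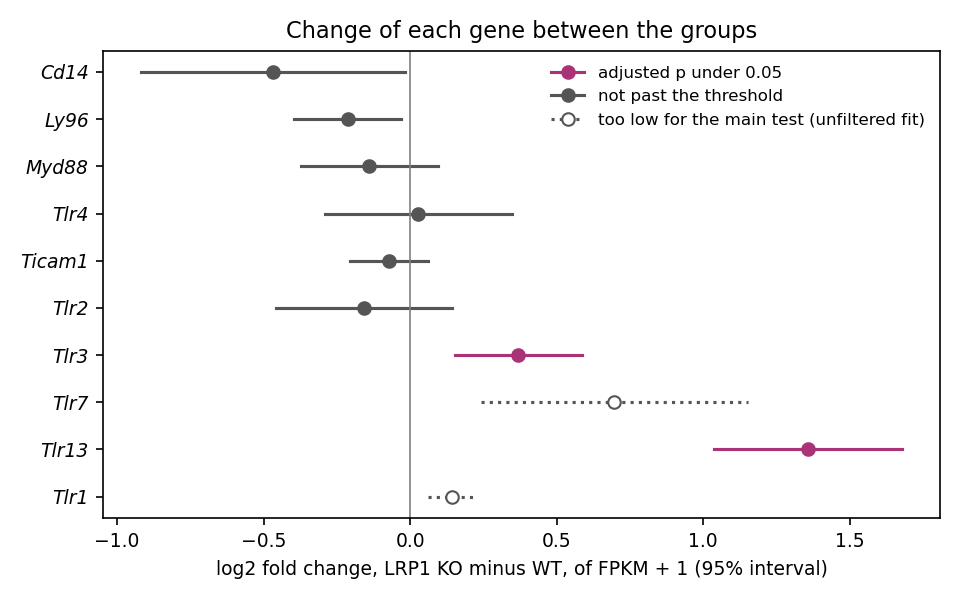
Difference between LRP1 KO and WT in log2(FPKM + 1) for each gene, with 95% intervals from limma. The intervals of Tlr13 (1.04 to 1.68) and Tlr3 (0.15 to 0.59) belong to genes past the threshold, while Tlr7 and Tlr1 (open circles, dotted) were fitted only without the filter on low values.

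The order of the levels differed between the groups in the lower part. In WT the means ran in the order Cd14, Ly96, Myd88, Tlr4, Ticam1, Tlr2, Tlr3, Tlr7, Tlr13 and Tlr1, from 37.3 to 0.0762 FPKM, and of neighbours in this order only Ly96 and Myd88, and Tlr7 and Tlr13, overlapped in their values. Cd14 exceeded 80.4% of all tested genes in WT, Tlr4 58.3% and Tlr3 12.9%. In LRP1 KO neighbours overlapped from Cd14 through Ly96 and Myd88 to Tlr4, and from Tlr3 through Tlr2 and Tlr13 to Tlr7, while Tlr4 lay above Ticam1, Ticam1 above Tlr3 and Tlr7 above Tlr1 without overlap. Tlr2 was above Tlr3 in 4 of 4 WT libraries and in 1 of 4 LRP1 KO libraries. Tlr13 was above Tlr7 in 1 of 4 WT libraries and in 4 of 4 LRP1 KO libraries, where it was 1.56 to 1.71 times Tlr7. Tlr4 was above every RNA-sensing receptor in all 8 libraries.

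Ratios within a library were compared for 4 pairs that work together, as differences of log2(FPKM + 1), and none passed an exact two-sided permutation test. Cd14 was 1.63 to 3.60 times Tlr4 in WT and 1.03 to 2.39 times in LRP1 KO, a difference of -0.50 (exact p = 0.257, adjusted over the 4 ratios p = 0.381). Ly96 was 1.20 to 2.19 times Tlr4 in WT and 1.09 to 1.59 times in LRP1 KO, a difference of -0.24 (exact p = 0.286, adjusted p = 0.381). Without 1 library the Cd14 to Tlr4 difference ran from -0.68 to -0.26, the latter without LRP1 KO library 3, and the Ly96 to Tlr4 difference from -0.39 (WT library 3 left out) to -0.12 (WT library 2 left out). The Ticam1 to Myd88 ratio differed by 0.07 (exact p = 0.571). Tlr1 was 0.0109 to 0.0332 times Tlr2 in WT and 0.0350 to 0.0763 times in LRP1 KO, without overlap. The tested difference of 0.30 (exact p = 0.171) came about equally from the changes of Tlr1 (0.14) and Tlr2 (-0.16). Adding 1 FPKM understates the change of so low a gene as Tlr1. With 0.1 FPKM added the difference was 0.89 (exact permutation p = 0.0571). Without LRP1 KO library 4 the Ticam1 to Myd88 difference was 0.18 (exact permutation p = 0.0286).

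The order of the libraries within each group was compared between the genes of the set and the macrophage genes. How many of all genes share these orders was not counted. Within LRP1 KO, Tlr13 and Tlr7 both ran from high to low in the order library 2, 4, 1 and 3, which is also the order of the macrophage sum, 554.0, 499.4, 370.1 and 225.5 FPKM. In WT, Tlr7 had the order of the macrophage sum, libraries 3, 2, 4 and 1, and Tlr13 differed from it by an exchange of libraries 2 and 3. Tlr3, Tlr4, Cd14, Ly96, Myd88, Ticam1, Tlr2 and Tlr1 did not have this order in either group. The macrophage level of every LRP1 KO library was above that of every WT library, so a fit can hardly separate the level from the group. With the mean log2 level of the 18 macrophage genes as a covariate, the log2 fold change of Tlr13 was 0.54 (adjusted p = 0.171) and that of Tlr3 was 0.55 (adjusted p = 0.225), and only 7 of 11389 genes were called at all. Genes that had not passed the test moved as well, Cd14 to -0.97, Tlr2 to -0.59, Myd88 to -0.57 and Tlr4 to 0.31, again without passing. With the endothelial level as the covariate, Tlr13 was 1.53 (adjusted p = 0.00667), Tlr3 was 0.34 (adjusted p = 0.438) and Cd14 was -0.13, and 166 genes were called. Whether more macrophage RNA accounts for the rise of Tlr13 or of any other gene named here was not tested.

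**Figure D3:**
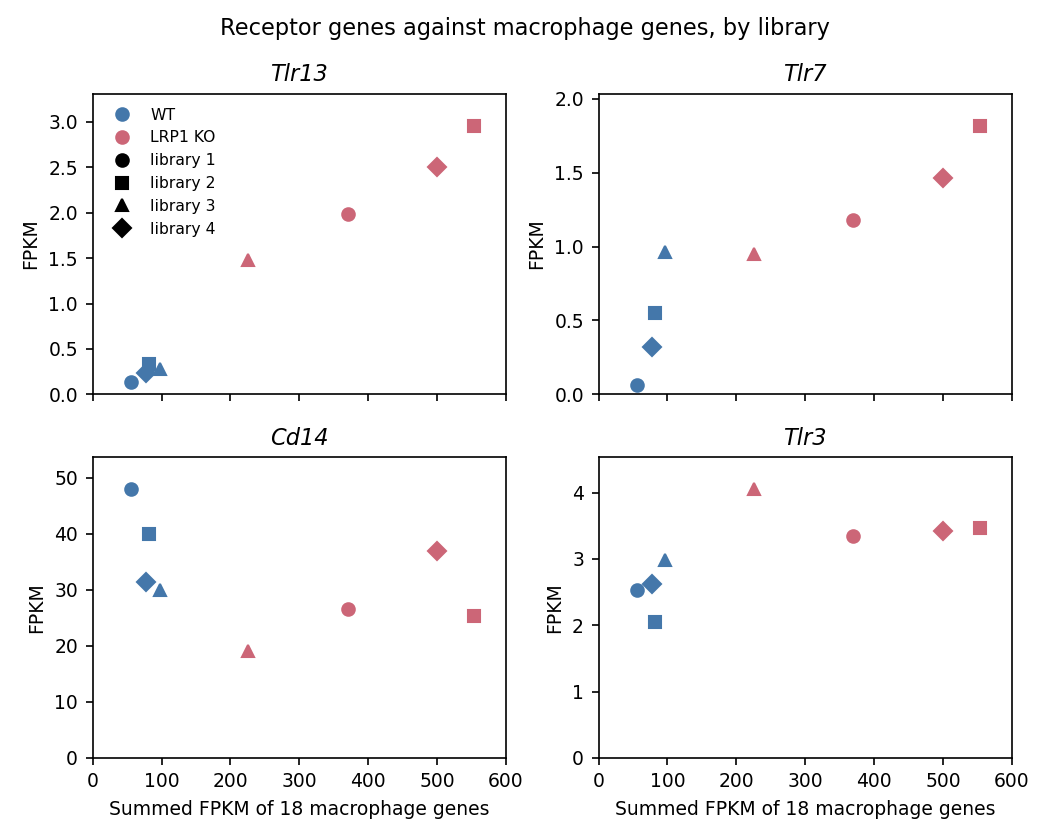
FPKM of Tlr13, Tlr7, Cd14 and Tlr3 in each library against the summed FPKM of 18 macrophage genes, in 4 WT and 4 LRP1 KO libraries (shapes give the library number). Tlr13 and Tlr7 are highest in LRP1 KO library 2, which has the highest macrophage sum (554.0), whereas Tlr3 is highest in LRP1 KO library 3, which has the lowest sum of its group (225.5).

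Likeness between genes was measured as Pearson's r of log2 values over the 8 libraries after each group's mean was removed, which describes libraries that share a normalization and a cell mixture. Closest to Tlr13 were Pfkl (r = 0.989), a glycolytic enzyme, Hk3 (0.988), the hexokinase of myeloid cells, and Emr1 (0.981), the F4/80 antigen of macrophages now named Adgre1. Closest to Tlr3 were Kif18a (0.987), Ankrd49 and Wdr35, and closest to Cd14 were Ube2e3 (0.989), Cacnb3 and Id1. For Tlr4 these were Fam122b (0.997), Chd9 and Esyt2, for Tlr2 Zfp438 (0.995), Cth and Idh1, and for Ly96 Ilvbl (0.974), Hddc3 and Acad10. For the adaptors they were Pck2 (0.990), Cdkn2c and Rps29 with Myd88, and Gnl2 (0.956), Tti1 and Pan2 with Ticam1. With 8 libraries such values are common, since the best partner of a tested gene reached a median r of 0.985. Among the genes of the set, Tlr3 varied with Tlr4 (r = 0.870), Cd14 with Ly96 (0.817) and Myd88 (0.669), Ly96 with Myd88 (0.786) and Tlr13 with Myd88 (0.646), while Cd14 and Tlr4 (-0.659), Tlr3 and Ly96 (-0.647) and Tlr3 and Cd14 (-0.620) varied in opposite directions.

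The rest of the pathway was examined with 60 further genes in lists by role, of which 58 were in the table and 43 could be tested. Of these, 4 were called higher and 2 lower in LRP1 KO, and 37 did not pass the test. The median log2 fold change was 0.03, beside -0.009 over all tested genes. The 14.0% called in either direction stands beside 1547 of 11389 genes called in all, 6.27% higher and 7.31% lower. The genes called were 2 accessory proteins, 3 endogenous ligands and a transcription factor. None of the 18 kinases and ubiquitin ligases or 6 negative regulators passed the test, nor did the adaptor Tirap (means of 3.77 and 4.35 FPKM, adjusted p = 0.340). With no filter on low values, 7 of 55 pathway genes were called higher and 1 lower. Over all 18026 genes of that fit, 3.31% were called higher. The 7 included Tlr8, Pik3ap1 (adjusted p = 0.00825), Cd180 (adjusted p = 0.0131) and Ly86 (adjusted p = 0.0266), each below 1 FPKM in every WT library.

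Among accessory proteins, Cd36, a scavenger receptor that assists TLR2, rose, with 0.765 to 1.56 FPKM over the WT and 7.01 to 12.5 FPKM over the LRP1 KO libraries (log2 fold change 2.17, SE 0.17, adjusted p = 0.000389). Lbp, the serum protein that carries lipopolysaccharide to CD14, fell from a mean of 96.3 to 55.0 FPKM (log2 fold change -0.82, SE 0.22, adjusted p = 0.0369). Over the LRP1 KO libraries Lbp had the order of the fibroblast sum, libraries 4, 2, 3 and 1, which is also the reverse of the order of the endothelial sum. The parts of fibroblast and endothelial RNA were not tested. Cnpy3, a chaperone of Toll-like receptors, was 29.9 and 25.2 FPKM (adjusted p = 0.088), and Unc93b1, which carries the RNA sensors to endosomes, was 8.37 to 10.3 FPKM in WT and 9.47 to 13.3 FPKM in LRP1 KO (adjusted p = 0.181). Irf7, which MyD88 activates downstream of TLR7 and which interferon induces, rose too, with 10.9 to 14.9 FPKM over the WT and 29.5 to 50.9 FPKM over the LRP1 KO libraries (log2 fold change 1.63, SE 0.16, adjusted p = 0.000628). Of the NF-kB subunits, Nfkb2 had means of 23.7 and 20.0 FPKM (adjusted p = 0.089), and Irf3, which TRIF activates, had means of 45.8 and 40.6 FPKM (adjusted p = 0.158). Other receptors were low. Tlr5 was 1.72 and 1.79 FPKM on average (adjusted p = 0.760), Tlr9 was at most 0.042 FPKM, and Tlr11 and Tlr12 were listed at 0 in every library.

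Of the endogenous ligands, Hspd1, a mitochondrial chaperone that has been described as a TLR4 ligand, rose from a mean of 100.3 to 119.8 FPKM (log2 fold change 0.25, adjusted p = 0.033), and S100a8, a calcium-binding protein of myeloid cells, rose from 0.813 to 2.52 FPKM (0.94, adjusted p = 0.0475), having passed the filter through its LRP1 KO libraries, while its partner S100a9 was listed at 0 in every library. Hmgb1, a nuclear protein released by dying cells, fell from 195.2 to 160.2 FPKM (-0.28, adjusted p = 0.0261). Among kinases, ubiquitin enzymes and their partners the smallest adjusted p were those of Chuk, a kinase of the NF-kB pathway (15.7 and 18.3 FPKM, adjusted p = 0.109), the ubiquitin-conjugating enzyme Ube2n (24.9 and 27.2 FPKM, adjusted p = 0.160) and the kinase-binding protein Tab1 (6.05 and 5.17 FPKM, adjusted p = 0.188). Negative regulators were headed by Cyld (8.13 and 9.40 FPKM, adjusted p = 0.159), Tnfaip3 (3.21 and 3.95 FPKM, adjusted p = 0.191) and Irak3 (9.78 and 8.69 FPKM, adjusted p = 0.340).

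Genes that Toll-like receptor signaling is known to induce formed a list of 22, of which 12 could be tested, 5 were called higher and 0 lower. The count in this direction stands beside 6.27% of all tested genes, and the median log2 fold change of the 12 was 0.22. Of the 5, Ccl3, Ccl4 and Ccl5 passed the filter on low values through the LRP1 KO libraries, in which they were high, with no WT library at 1 FPKM for Ccl3 and Ccl4 and 1 for Ccl5, and with at least 1 FPKM required in all 8 libraries 1 target was called. The chemokine gene Ccl3 was 0.198 to 0.769 FPKM in WT and 3.08 to 8.19 FPKM in LRP1 KO (log2 fold change 2.13, SE 0.25, adjusted p = 0.00171). Ccl4 (1.23, adjusted p = 0.0028), Ccl5 (0.75, adjusted p = 0.0282), the cytokine gene Il6 (1.37, adjusted p = 0.00788) and the adhesion molecule gene Icam1 (0.40, adjusted p = 0.0297) also rose. Il6 was 0.862 to 1.61 FPKM in WT and 2.65 to 6.76 FPKM in LRP1 KO, and Icam1 37.6 to 49.6 and 51.5 to 64.1 FPKM. Other targets did not pass the test. Saa3, an acute-phase gene, was 862.3 to 2298 FPKM in WT and 195.2 to 1212 FPKM in LRP1 KO (-1.57, adjusted p = 0.0688), Ccl2 had means of 189.1 and 197.6 FPKM (adjusted p = 0.826), and Cxcl10, an interferon-induced chemokine, 3.49 and 3.66 FPKM (adjusted p = 0.910). Some targets were below the filter. Tnf was at most 0.0262 FPKM in WT and 0.129 to 0.223 FPKM in LRP1 KO (adjusted p = 0.0117 in the fit with no filter), and Cd40 was 0.375 to 0.728 and 0.888 to 1.43 FPKM (adjusted p = 0.0321 in that fit). Il1b was at most 0.128 FPKM in any library, and Il12b was listed at 0. Ccl3, Ccl4 and Ccl5 are also made by macrophages, whose summed genes were higher in LRP1 KO as given above, and the part of macrophages in these counts was not tested. Over the LRP1 KO libraries none of these chemokine genes had the order of the macrophage sum, libraries 2, 4, 1 and 3. Ccl3 and Ccl4 ran in the order 2, 1, 4 and 3, and Ccl5 in the order 4, 1, 2 and 3. Over the LRP1 KO libraries Il6 and Icam1 had the order of the endothelial sum, libraries 1, 3, 2 and 4, and the part of endothelial RNA was not tested either. With the macrophage level as a covariate 0 of the 12 targets and 0 of the 43 other pathway genes were called, among 7 genes in all, and with the endothelial level 2 and 2, among 166 genes in all.

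**Figure D4:**
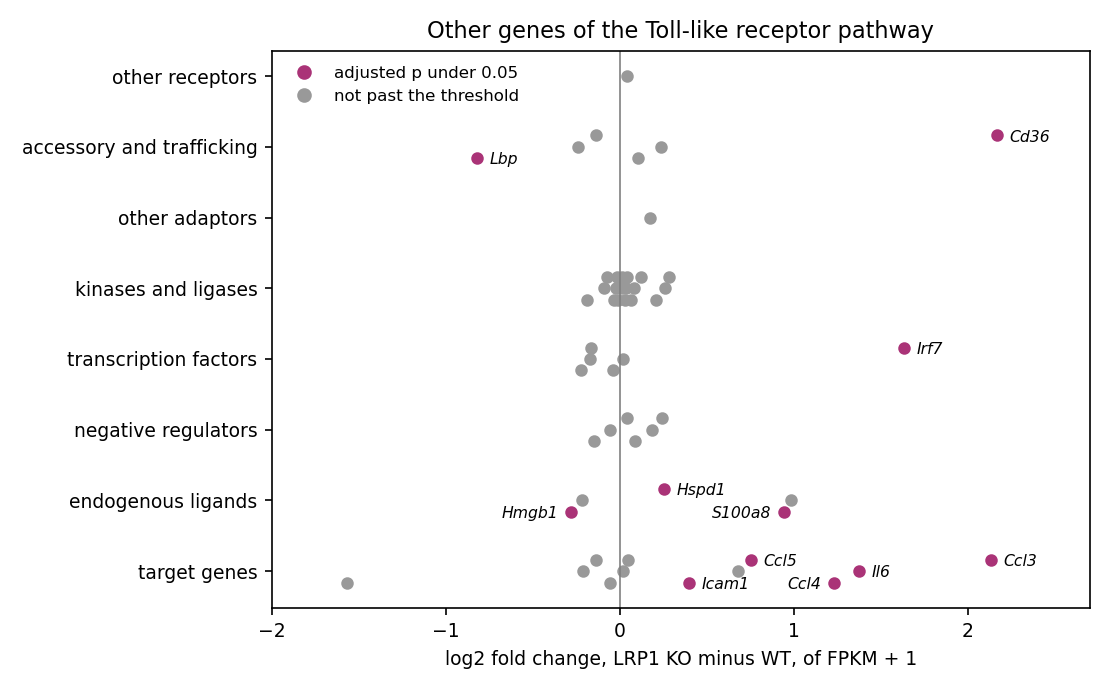
Difference between LRP1 KO and WT in log2(FPKM + 1) for the tested genes of each pathway list, 1 point a gene, with genes past the threshold named and vertical position within a list used only to separate points. The named genes lie among accessory proteins, transcription factors, endogenous ligands and targets, and all 18 kinases and ligases lie between -0.19 and 0.28.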

How the data were processed

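RNA was prepared with an RNeasy kit and libraries with an Illumina TruSeq kit. The authors deposited 1 table of gene values for the 8 libraries, taken here to be FPKM from its values because the header gives no unit and the values carry a length correction, which TPM values would also do. The submitters' processing notes name TopHat2, Cufflinks and mm10, while the study's methods describe other tools, and which made this table is not given in the sources used here. Quantile normalization before deposit removed depth, so read counts and counting errors are unknown.

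Expression was analysed as log2(FPKM + 1), on which scale fold changes of low genes are understated. Genes with at least 1 FPKM in at least 4 libraries (11389) were fitted with limma 3.58.1 in R 4.3.3, with group as the only term, variances that follow the mean level and Benjamini-Hochberg adjustment over all tested genes. Genes were called at an adjusted p under 0.05. For the 2 genes of the set below the filter and for the ratios, a two-sided exact permutation test over the 8 libraries was used. The test was tried on simulated data first. Positions are from GENCODE M21 and promoters from RefSeq. Cell type and pathway lists were written by hand, and 190 of their 192 genes were found. Genes named from the pathway lists are the up to 3 tested genes of each with the smallest adjusted p, and for each tested gene of the set the 3 with the highest correlation. Other genes named from these lists, and Gm45542 and Acaa1a as overlapping genes, were picked once their values had been seen. The genes of the set and the lists were chosen with earlier results of these data known.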

Additional observations from a re-analysis of the deposited data

Results flagged for a closer look

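In 28 groups of 4 libraries, the gap of the highest or lowest library to its nearest neighbour was divided by the range of the group and set against Dixon's 95% critical value. It was above it in 2, which is about what chance gives, since about 1 in 20 groups passes by chance. For Tlr3 in LRP1 KO the quotient was 0.842, because library 3 (4.05 FPKM) stood above the other 3 (3.35 to 3.46 FPKM). For Ly96 in WT it was also 0.842, because library 3 (22.1 FPKM) stood below the others (25.8 to 26.5 FPKM).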

How the results depend on the processing

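Of 207 values of single genes and ratios under alternatives, 182 kept their direction and their side of the threshold. Called genes of the set numbered 2, but 1 with no filter, with at least 1 FPKM in all 8 libraries (where Tlr13 was not tested) or with the endothelial covariate, and 0 with the macrophage covariate. They numbered 1 to 4 with 1 library left out, 4 without LRP1 KO library 4, 1 without any of WT libraries 1, 2 and 4 or LRP1 KO libraries 1 to 3. Other pathway genes called (6) became 2 with the endothelial and 0 with the macrophage covariate and 2 to 8 with 1 library left out, 2 or 3 without any of WT libraries 2 to 4 or LRP1 KO libraries 1 to 3. With no filter, 8 of 55 were called, 7 higher and 1 lower, among 1163 of 18026 genes in all. Called targets (5) became 2 and 0 with these covariates, 1 with the strict filter and 3 to 8 with 1 library left out, 3 without WT library 3 or 4 or LRP1 KO library 1 or 2, 8 without LRP1 KO library 4. Over all genes the number called also moved, from 1547 to 512 without WT library 2, 3021 without LRP1 KO library 4, 166 with the endothelial covariate and 7 with the macrophage covariate.

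Tlr3 lost its call with no filter (0.37, adjusted p = 0.0653), the macrophage covariate (0.55) or the endothelial covariate (0.34), and was 0.30 to 0.43 with 1 library left out. Over all alternatives its adjusted p was 0.0208 to 0.438. Tlr13 lost its call with the macrophage covariate (0.54, adjusted p = 0.171, over all alternatives 0.000406 to 0.171). Ly96 passed with library weights (-0.24). Signs turned for Myd88 (0.13) and Tlr2 (0.032) with the endothelial covariate and for Tlr4 with library weights (-0.050). Leaving out 1 library gave -0.071 to 0.12 for Tlr4, -0.63 to -0.32 for Cd14, -0.27 to -0.18 for Ly96, -0.24 (without WT library 4) to -0.065 (without WT library 2) for Tlr2, -0.23 (without LRP1 KO library 4) to -0.073 (without LRP1 KO library 1) for Myd88, 0.12 to 0.16 for Tlr1, 0.55 to 0.85 for Tlr7 and 0.0052 to 0.18 for the Ticam1 to Myd88 ratio. The Tlr4 sign turned without WT library 1 (-0.028), WT library 2 (-0.071) or LRP1 KO library 3 (-0.055). Tlr1 had an adjusted p of 0.0526 (difference 0.14) with no filter. The causes were not tested. Covariates, library weights, the strict filter, untrended variances and the block were not run for Tlr1 and Tlr7, which are below the filter.

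Libraries of the 2 groups share replicate numbers in their titles. Deviations from the group means of libraries with the same number correlated at 0.158, 0.141, 0.340 and -0.312, not all above 0.1, so the numbers were not taken as pairs, though 2 of 4 WT libraries correlated best with the LRP1 KO library of their own number. With the replicate block 2 genes of the set, 4 other pathway genes and 5 targets were called, among 1013 genes in all, and Tlr3 kept its call (0.37, adjusted p = 0.0483).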
